A study of Mus musculus with 17 samples.

Results

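The comparison described here sets the hippocampus of mice given ApoE shRNA, with FC, against the hippocampus of mice given control shRNA, also with FC. Each group was 1 RNA-seq library, and a gene was included where the library with more of it held 100 counts or more. These were 12474 of the 24652 genes in the table. The other 12178 genes had fewer counts in both libraries.

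An shRNA is a short hairpin RNA that directs the degradation of a chosen messenger RNA, here that of apolipoprotein E. The mice were of the C57BL/6 strain, and a further hippocampus library came from control shRNA mice without FC. The series holds 17 libraries in all, and the other 14, from primary neurons, were not used. The labels do not spell out FC, and they do not say how the shRNA was delivered, to which cells, at what age or time, or whether a library pooled several animals. No library of ApoE shRNA without FC is among the 17. An effect of the shRNA cannot be told apart from a difference between the animals or tissue pieces behind 2 single libraries. The question the series title names is how ApoE made by astrocytes acts on neuronal cholesterol metabolism and on memory that depends on histone acetylation.

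ApoE is the main lipid carrier of the brain. Astrocytes, and microglia when activated, secrete it as particles that carry cholesterol to neurons through receptors of the LDL receptor family. Interferons, the cytokines of antiviral and T cell responses, act through IRF and other factors on a shared set of genes that includes those for antigen presentation on MHC class I and class II molecules, and microglia and astrocytes of inflamed brain tissue express many of them.

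The ApoE shRNA library with FC held 18.9 M counts, its control with FC 17.79 M and the control without FC 18.17 M. Levels are given as CPM, the counts of a gene for each M counts of its library. The log2 ratio is that of the ApoE shRNA library over the control shRNA library with FC, with 0.5 counts added to each, so a negative value is lower with ApoE shRNA. Intervals are exact 95% Clopper-Pearson intervals of the 2 counts. They cover counting error only, and with 1 library per group no test of the conditions was possible. The control library with FC stood apart from the other hippocampus libraries for immune genes, and the ApoE shRNA library stood apart for mitochondrial and AT-rich transcripts, so the level in the control library without FC is given beside the results. Fibcd1 and Prox1, which mark CA1 and dentate granule cells of the hippocampus, were detected in every library.

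Most genes had similar levels in the 2 libraries. The median log2 ratio was −0.02, with quartiles of −0.40 and 0.23, and 9688 genes were within 1.5-fold. At least 1.5-fold higher with ApoE shRNA were 556 genes, 4.46% of those measured, and at least 1.5-fold lower were 2230 genes, 17.9%. The imbalance was larger among strong differences: 9 genes were at least 4-fold higher and 485 at least 4-fold lower. Of the measured genes, 29 had 0 counts in the ApoE shRNA library, and 0 genes were at 0 counts in the control library with FC. Just inside the limit of 100 counts lay 20 genes, with log2 ratios up to 0.82 (Phf7) and down to −2.12 (Zfp995). Just outside it, at 99 counts, lay 23 genes, which included the muscarinic acetylcholine receptor Chrm5 with 99 counts with ApoE shRNA, 8 in the control with FC and 42 in the control without FC.

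**Figure D1:**
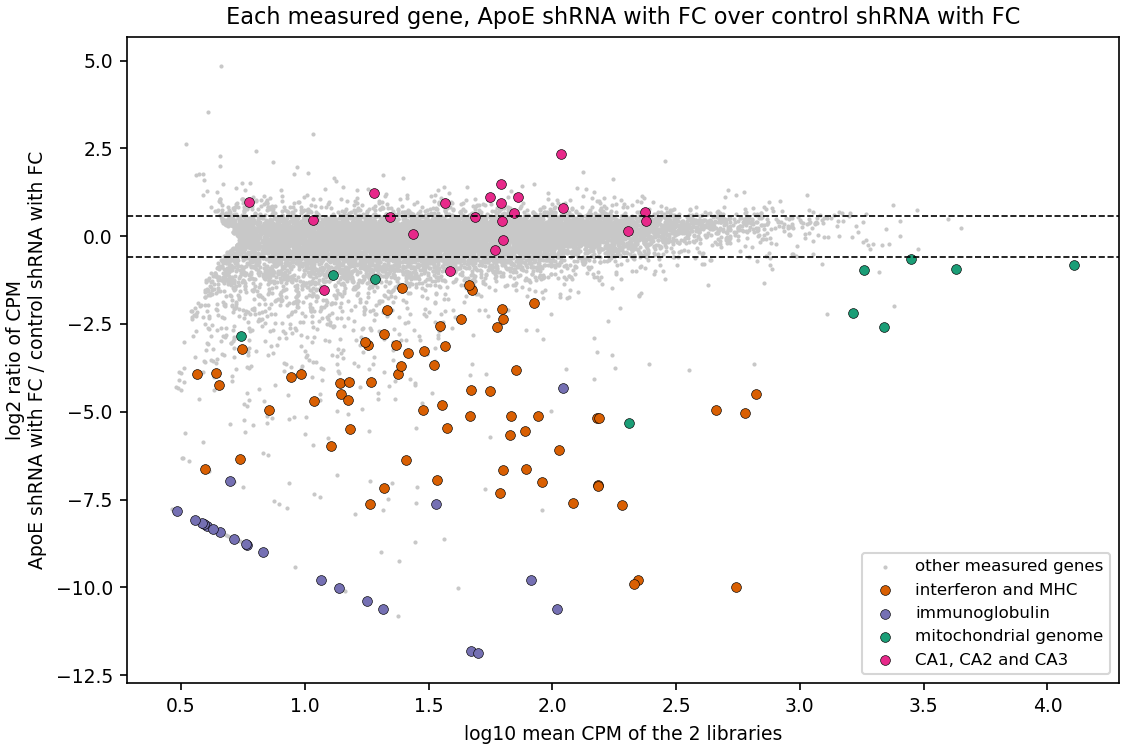
Each point is a measured gene, with the log10 of its mean CPM in the 2 libraries on the horizontal axis and its log2 ratio of ApoE shRNA with FC over control shRNA with FC on the vertical axis; dashed lines mark 1.5-fold. Interferon, MHC and immunoglobulin genes lie below the lower line at every level, the mitochondrial transcripts lie below it too, and most CA field genes lie above 0.

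Apoe, the target of the shRNA, was at 1384 CPM (26148 counts) with ApoE shRNA and FC, 2797 CPM (49755 counts) in the control with FC and 1697 CPM (30823 counts) in the control without FC. The log2 ratio was −1.02 (−1.04 to −0.99) against the control with FC and −0.29 against the control without FC. Apoe was thus 2.02-fold lower than in the control with the same FC label, and within 1.5-fold of the control without FC. Other genes of secreted lipid carriers had the same order. Apod, a small lipid-binding protein of glia, had 106, 341 and 107 CPM in the ApoE shRNA, control with FC and control without FC libraries, a log2 ratio of −1.68. Clu, the astrocyte apolipoprotein J, had 902, 1566 and 999 CPM (−0.80). Of 6 measured genes of apolipoproteins and lipoprotein remodelling 5 were lower and 1 was higher. The higher gene was Lpl, a lipase that releases fatty acids from lipoproteins, with 16.5 CPM with ApoE shRNA, 8.43 in the control with FC and 32.8 in the control without FC.

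For most called genes the ApoE shRNA library was close to the control without FC. Of the 556 genes higher than in the control with FC, 531 (95.5%) were within 1.5-fold of the control without FC. Of the 2230 lower genes, 1448 (64.9%) were within 1.5-fold of it, 728 were lower than it too and 54 were higher. Both counts use the same ApoE shRNA library, so they are not independent. For comparison, 137 of 11980 genes (1.14%) were at least 1.5-fold higher and 730 (6.09%) at least 1.5-fold lower than in the control without FC. Most genes were thus within 1.5-fold of that control, so closeness to it was not particular to the called genes. Among the lower genes it was less frequent.

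Interferon-stimulated genes were far lower with ApoE shRNA than in the control with FC. All 42 measured members were at least 1.5-fold lower with ApoE shRNA, with log2 ratios from −7.63 to −1.92 and a median of −4.45. Their summed level was 178 CPM with ApoE shRNA, 3572 in the control with FC and 223 in the control without FC. Against the control without FC the median was −0.40, with 4 members higher and 12 lower. Some of these calls rest on few counts, such as Zbp1 with 3 against 6. The group was therefore high in the control library with FC and low in the other hippocampus libraries. Members with few counts with ApoE shRNA, such as Gbp2, Igtp and Zbp1, passed the count limit through the control with FC alone. For such members, being lower describes that library.

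The immunity-related and guanylate-binding GTPases, which attack the vacuoles of intracellular pathogens, were among the most different. Gbp2 had 2.22 CPM with ApoE shRNA, 303 in the control with FC and 3.03 in the control without FC, and Igtp had 2.17, 303 and 3.85 CPM. Gbp8 had 1 count against 1473 in the control with FC and 4 in the control without FC, a ratio of 1565-fold with an interval of 280 to 61854. Zbp1, a sensor of nucleic acids, had 3 counts against 652 and 6. Guanylate-binding and immunity-related GTPase genes are close relatives, and how the authors' counting assigned reads shared by them is not given in the sources used here.

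Transcription factors and antiviral effectors had smaller ratios. Irf1, an interferon-induced transcription factor, had 7.46 CPM with ApoE shRNA, 65.9 in the control with FC and 8.81 in the control without FC (log2 ratio −3.14). Irf7, which amplifies type I interferon production, had 1.85, 58.1 and 1.38 CPM (−4.95). Ifit3, an antiviral effector that acts on foreign RNA, had 5.03, 107 and 5.17 CPM (−4.40), and the ubiquitin-like Isg15 had 1.16, 26.9 and 1.71 CPM (−4.50). In each of these 4 genes the ApoE shRNA library was within 1.5-fold of the control without FC.

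Antigen presentation genes were lower without exception. All 18 measured MHC class I presentation genes were lower, with a median of −4.99 and a summed level of 253 CPM with ApoE shRNA, 4837 in the control with FC and 342 in the control without FC. B2m, the invariant light chain of class I molecules, had 56.7, 1276 and 81.4 CPM (−4.49). The heavy chain gene H2-K1 had 28.9, 892 and 48.2 CPM (−4.94), and Nlrc5, the transactivator of class I genes, had 0.741, 123 and 3.63 CPM (−7.32). Relative to the control without FC, 9 of the 18 were lower and 0 were higher. Some of the 18, such as Nlrc5, passed the count limit through the control with FC alone, so their count describes that library. The H2-Q genes are near-identical copies, so the values of single members are uncertain.

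All 9 MHC class II presentation genes were lower, with a median of −6.63, and their summed level was 19.7 CPM with ApoE shRNA, 2495 in the control with FC and 27.2 in the control without FC. Cd74, the invariant chain that guides class II molecules to the endosome, had 1.06 CPM (20 counts), 1107 CPM (19686 counts) and 4.79 CPM (87 counts). It was 1046-fold lower than in the control with FC, with an interval of 677 to 1712. The class II chains H2-Aa (0.476, 445 and 0.826 CPM), H2-Ab1 (0.423, 429 and 2.2 CPM) and H2-Eb1 (1.85, 380 and 1.27 CPM) followed it. Cd74 and these chains passed the count limit through the control with FC alone, so their count describes that library. Ciita, the transactivator of class II genes, had a smaller ratio, with 3.76, 32.3 and 5.23 CPM (−3.10).

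These genes are known to share promoter elements, and 6 of their promoters are shown because the genes were lower together. The windows hold the 250 bases before the transcription start, from RefSeq on GRCm38.p6, the assembly that mm10 names, printed on the gene's strand. Capitals mark matches on either strand to the interferon-stimulated response element (GAAA, 2 bases of any kind, GAAA), the gamma-activated site (TTCNNNGAA) and the Y box of MHC promoters (GATTGG), and the matches printed share 0 bases with each other. Gbp2 lies at chr3:142620413-142620662 (plus strand), Cxcl10 at chr5:92348890-92349139 (minus), Igtp at chr11:58199306-58199555 (plus), Irf1 at chr11:53769764-53770013 (plus, 1 of 2 windows), B2m at chr2:122147437-122147686 (plus) and H2-Aa at chr17:34287824-34288073 (minus).
Gbp2: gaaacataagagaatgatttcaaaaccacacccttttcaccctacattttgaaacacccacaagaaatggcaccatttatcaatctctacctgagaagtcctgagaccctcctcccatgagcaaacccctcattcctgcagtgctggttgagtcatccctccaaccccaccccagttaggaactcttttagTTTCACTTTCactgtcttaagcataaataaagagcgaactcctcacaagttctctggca
Cxcl10: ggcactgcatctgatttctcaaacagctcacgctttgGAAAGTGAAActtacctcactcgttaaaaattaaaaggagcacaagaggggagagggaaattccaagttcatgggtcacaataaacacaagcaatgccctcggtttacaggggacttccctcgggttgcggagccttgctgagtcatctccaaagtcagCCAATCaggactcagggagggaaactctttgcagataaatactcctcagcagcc
Igtp: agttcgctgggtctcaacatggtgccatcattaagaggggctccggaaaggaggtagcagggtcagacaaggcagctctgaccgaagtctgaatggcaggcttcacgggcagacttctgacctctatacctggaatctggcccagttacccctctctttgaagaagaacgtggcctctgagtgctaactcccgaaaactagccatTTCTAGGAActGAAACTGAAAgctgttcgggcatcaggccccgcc
Irf1: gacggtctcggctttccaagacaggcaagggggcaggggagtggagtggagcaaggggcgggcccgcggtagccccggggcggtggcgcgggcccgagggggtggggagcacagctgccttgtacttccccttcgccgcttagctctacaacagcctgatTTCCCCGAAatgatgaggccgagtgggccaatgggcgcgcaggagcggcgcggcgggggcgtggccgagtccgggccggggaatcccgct
B2m: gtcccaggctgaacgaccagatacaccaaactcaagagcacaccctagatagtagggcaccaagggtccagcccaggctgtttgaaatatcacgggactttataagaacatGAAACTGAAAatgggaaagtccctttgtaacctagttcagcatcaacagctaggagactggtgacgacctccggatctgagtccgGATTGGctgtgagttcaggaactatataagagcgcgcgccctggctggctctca
H2-Aa: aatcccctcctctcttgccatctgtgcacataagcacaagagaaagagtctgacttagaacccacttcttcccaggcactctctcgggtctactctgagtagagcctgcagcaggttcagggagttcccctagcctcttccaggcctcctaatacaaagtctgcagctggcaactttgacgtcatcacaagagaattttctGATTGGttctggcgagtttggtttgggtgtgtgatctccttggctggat

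The response element occurred in 17 of the 28 interferon-stimulated genes with a window (60.7%), in 3.36% of the 9536 measured genes with a window and in 2.98% of all 32851 windows. The gamma-activated site occurred in 8 of those 28 genes (28.6%), and in 7.02% of the measured genes and of all windows. The Y box occurred in 6 of 6 class II genes and 10 of 15 class I genes (66.7%), against 2 of 28 interferon-stimulated genes, 22.1% of the measured genes and 14.6% of all windows. In the Gbp2 window the element began 59 bases before the start site, and in the Igtp window it began 34 bases before the start, next to a gamma-activated site. These are matches of letters and describe no binding.

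**Figure D2:**
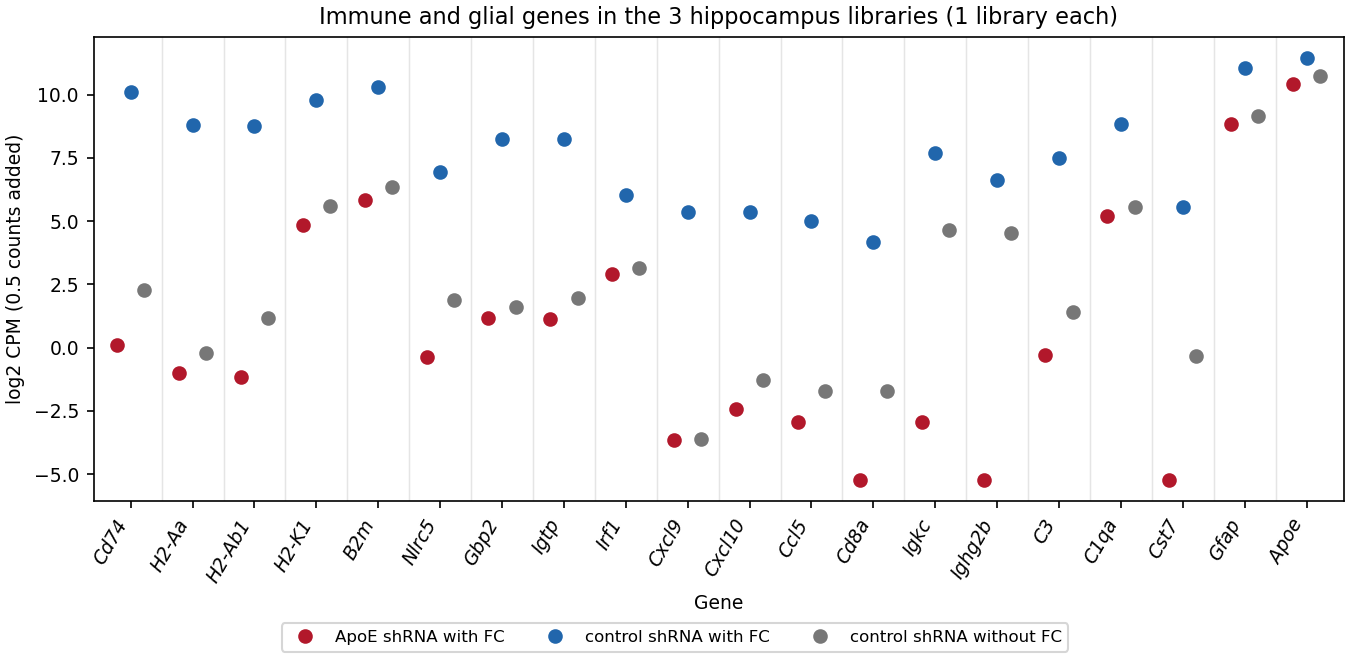
Level of each named immune or glial gene in the ApoE shRNA library with FC, the control shRNA library with FC and the control shRNA library without FC (1 library each), as log2 CPM with 0.5 counts added. The control with FC is the highest of the 3 in every gene drawn, and Cd8a, Ighg2b and Cst7 had 0 counts with ApoE shRNA.

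Some chemokine and T cell genes had counts near 0 with ApoE shRNA and in the control without FC. Cxcl9, an interferon-induced attractant of T cells, had 1 count with ApoE shRNA, 723 in the control with FC and 1 in the control without FC. Cxcl10, which binds the same receptor, had 3, 734 and 7 counts, and Ccl5 had 2, 565 and 5. Cd8a, the co-receptor of cytotoxic T cells, had 0 counts against 323 in the control with FC and 5 in the control without FC. With a floor of 3 counts per library it was at least 114-fold lower. Here and below, such floor values leave out counting error in the control and can exceed the limit of the interval. For Cd8a that limit was a log2 ratio of −6.53. Pdcd1, the checkpoint receptor PD-1 of activated T cells, had 0, 174 and 1 counts (at least 61.6-fold lower), and Nkg7 of cytotoxic granules had 0, 161 and 5 counts (at least 57.0-fold lower). The control library with FC thus carried transcripts of Cd8a, Pdcd1 and Nkg7 that the ApoE shRNA library did not show at this depth.

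Of 16 T and NK cell markers, 7 had enough counts, and all 7 were lower (median −7.36, and −6.68 with genes at 0 set to their bound). Such genes passed the count limit through the control library alone, so their count describes that library. Over all 16 markers the summed level was 4.23 CPM with ApoE shRNA, 160 in the control with FC and 6.50 in the control without FC, and 5, 0 and 2 of the markers were at 0 counts. The T cell receptor component Cd3e, short of the limit, had 0, 84 and 3 counts. Of 14 B and plasma cell markers only Cd22 was measured (4, 172 and 6 counts). In bulk tissue, fewer cells of a type and less RNA per cell cannot be told apart.

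Immunoglobulin transcripts, the product of plasma cells, separated the ApoE shRNA library from both controls. Of 54 such genes in the table, 43 had 0 counts with ApoE shRNA, 0 were at 0 in the control with FC and 4 were at 0 in the control without FC. Their summed counts were 219, 19935 and 2427, and 198 of the 219 counts with ApoE shRNA fell on Ighm, the heavy chain of IgM. Igkc, the kappa light chain, had 2, 3722 and 461 counts. Ighg2b had 0, 1777 and 425 counts (at least 629-fold lower than in the control with FC), and Igha had 0, 1676 and 81 counts (at least 594-fold lower). The 22 measured genes were all lower than in the control with FC (median −8.69, and −6.31 with 17 genes at their bound). Against the control without FC 20 of the 22 were lower, some on few counts, such as Igkv3-2 with 0 against 4. Of the 22, 17 had 0 counts with ApoE shRNA. All of the 22 except Ighm passed the count limit through the control with FC alone, so their count describes that library. Variable segments are near-identical copies, so their split over segments is uncertain. Hbb-bs, a haemoglobin chain and so a sign of blood in the tissue, had 11.6 CPM with ApoE shRNA, 21.9 in the control with FC and 33.6 in the control without FC. Fibroblast and meninges markers summed to 596, 1374 and 664 CPM. The part of blood or meninges in the immunoglobulin counts was not tested.

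Microglia markers were lower in 17 of 18 measured cases, with a median of −1.87 and a summed level of 462 CPM with ApoE shRNA, 2704 in the control with FC and 621 in the control without FC. The complement starters C1qa, C1qb and C1qc had the largest ratios after the protease Ctss. C1qa had 36.6, 453 and 46.7 CPM (−3.63), and Ctss had 47.7, 669 and 65.3 CPM (−3.81). Genes of resting microglia had smaller ratios: the purine receptor P2ry12 had 16.7, 38.4 and 29.9 CPM (−1.20), and Tmem119 had 24.2, 78.5 and 26.6 CPM (−1.70). The exception was Fcrls, a receptor of resident microglia, at 18.6, 10.8 and 22.7 CPM (0.78).

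Genes of activated microglia were lower in 15 of 17 cases (median −2.31). Cst7, a cystatin of activated microglia, had 0 counts with ApoE shRNA, 845 in the control with FC and 14 in the control without FC, at least 299-fold lower than in the control with FC. Clec7a, the receptor dectin-1, had 1, 851 and 12 counts, and Itgax, the integrin CD11c, had 6, 795 and 10 counts. Cst7, Clec7a and Itgax passed the count limit through the control with FC alone. Axl, a receptor for the clearance of dying cells, differed less, with 50.7, 122 and 57.6 CPM (−1.26). Markers of perivascular macrophages were lower in 3 of 3 measured cases of 8 found (Mrc1 at 2.54, 11.2 and 4.79 CPM). All 3 passed the count limit through the control with FC alone, so their count describes that library. Of 8 neutrophil and monocyte markers 2 were measured and both were lower, Ly6c2 with 0, 170 and 12 counts and Lcn2 with 11, 169 and 2 counts; both passed the count limit through the control with FC alone.

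Complement and inflammation genes were lower alongside these markers. Of 13 measured complement genes 11 were lower and 0 higher (median −3.58). C3, the central complement protein, had 0.794 CPM with ApoE shRNA, 182 in the control with FC and 2.64 in the control without FC (−7.79), and C4b had 95.9, 1208 and 151 CPM (−3.66). Of 14 measured inflammation genes 13 were lower (median −2.59), among them the bacterial sensor Tlr2 with 7, 244 and 28 counts. Members of both lists passed the count limit through the control with FC alone, so their count describes that library. Among them were C3 and C1ra for complement and Cxcl9, Cxcl10, Ccl5 and Tlr2 for inflammation. The cytokines Il1b (2, 30 and 5 counts) and Tnf (1, 19 and 0 counts) were under the count limit in every library.

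Astrocyte genes differed by what they mark. Of 19 reactive astrocyte genes 16 were lower (median −2.41), such as the protease inhibitor Serpina3n (53.0, 282 and 61.7 CPM, −2.41), the intermediate filament Vim (34.9, 261 and 57.5 CPM, −2.90) and the oncostatin M receptor Osmr (5.61, 43.5 and 9.52 CPM, −2.95). Of these 19, several are interferon-induced genes that stand in the lists above too. Some, such as Cxcl10, Iigp1, Gbp2 and Psmb8, passed the count limit through the control with FC alone, so their count describes that library. Among 19 general astrocyte markers 7 were lower and 1 higher (median −0.36). Gfap, the astrocyte intermediate filament, had 457 CPM with ApoE shRNA, 2117 in the control with FC and 570 in the control without FC (−2.21). The glutamate transporter Slc1a2 had 2636, 3395 and 3297 CPM (−0.36) and S100b 61.1, 68.5 and 85.3 CPM (−0.17). The water channel Aqp4 (91.4, 257 and 166 CPM) and Sox9 (28.7, 54.1 and 53.0 CPM), a transcription factor of astrocyte identity, were lower than in both controls.

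**Figure D3:**
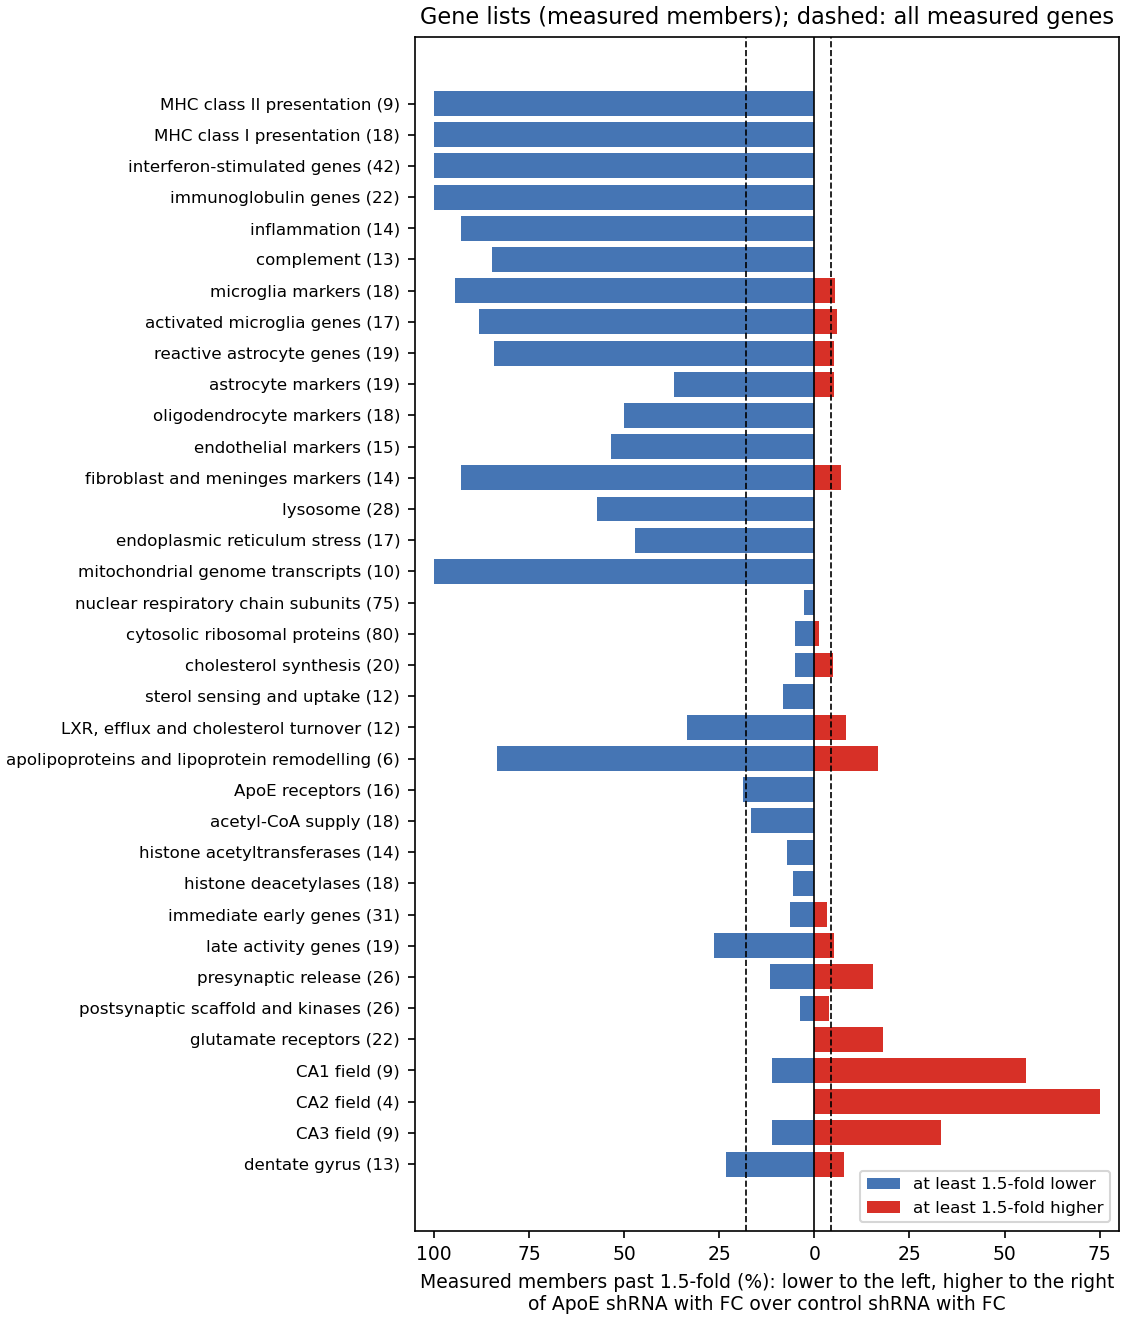
Percentage of the measured members of selected gene lists (number measured in parentheses) that were at least 1.5-fold lower (left) or higher (right) in ApoE shRNA with FC than in control shRNA with FC. Dashed lines give the shares over all measured genes, 17.9% lower and 4.46% higher; immune, microglia and mitochondrial lists lie far past the left line and the lists of the CA2 field (3 of 4 genes) and the CA1 field (5 of 9) are farthest past the right one.

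Other non-neuronal lists were uneven, and the shares that were lower lay on both sides of the 17.9% of all measured genes. Fibroblast and meninges markers were lower in 13 of 14 cases (median −1.10), with Ogn, a matrix proteoglycan, at 2.28, 15.5 and 8.97 CPM and Col1a2, a chain of collagen I, at 8.78, 27.3 and 10.7 CPM. The member that went the other way was Dcn at 48.5, 25.4 and 54.4 CPM, which is also listed for CA1 neurons. Endothelial markers were lower in 8 of 15 cases (median −0.61), led by the interferon-responsive Ly6a at 18.7, 106 and 13.8 CPM, and mural cell markers in 1 of 8 (median −0.43). Oligodendrocyte markers were lower in 9 of 18 cases (median −0.57), with Aspa, which degrades N-acetylaspartate, at 5.24, 17.1 and 12.1 CPM and the myelin gene Mbp at 1968, 2336 and 1817 CPM, while precursor markers were lower in 1 of 9 (median 0.09). The haemoglobin chain Hba-a1 had 9.74, 17.4 and 29.7 CPM, the same order as Hbb-bs; haemoglobin genes have near-identical copies. Ttr, the carrier of thyroxine made by the choroid plexus, had 2.43, 33.8 and 1.05 CPM, but only 5 of 20 choroid plexus markers were measured, 2 lower and 2 higher.

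Lysosome genes and the genes of each stress list here were lower in larger shares than the 17.9% of all measured genes. The medians of the heat shock, NRF2 and integrated stress response lists were closer to the −0.02 of all measured genes than those of the lysosome and endoplasmic reticulum lists. Of 28 lysosome genes 16 were lower and 0 higher (median −0.70), led by the proteases Ctsc (6.98, 87.8 and 14.5 CPM, −3.65) and Ctsz (23.5, 150 and 30.1 CPM, −2.67), with Ctsb at 551, 965 and 426 CPM (−0.81). Endoplasmic reticulum stress genes were lower in 8 of 17 cases (median −0.58), such as Edem1, which sorts misfolded proteins for degradation (23.4, 62.0 and 27.6 CPM). Of 16 heat shock genes 5 were lower (median −0.02), such as the small heat shock protein Cryab (62.7, 160 and 62.7 CPM), and of 13 NRF2 targets and metallothioneins 5 were lower (median −0.26), such as the haem oxygenase Hmox1 (5.71, 16.5 and 4.62 CPM). In the integrated stress response list 6 of 21 genes were lower and 3 higher (median −0.14), with the cystine carrier Slc7a11 at 23.9, 105 and 64.8 CPM.

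Genes of the hippocampal pyramidal fields were higher with ApoE shRNA in larger shares than the 4.46% of all measured genes. Of 9 CA1 markers 5 were higher and 1 lower (median 0.69), of 4 measured CA2 markers 3 were higher (median 1.17), and of 9 CA3 markers 3 were higher and 1 lower (median 0.54). Fibcd1, a CA1 marker, had 181 CPM with ApoE shRNA, 35.9 in the control with FC and 176 in the control without FC (2.33, interval 2.21 to 2.45). Rgs14, a CA2 brake on G protein signalling, had 92, 32.7 and 91 CPM (1.49), and Grik4, a kainate receptor subunit of CA3, had 76.9, 35.3 and 73.4 CPM (1.12). Not every marker followed: the CA1 marker Wfs1 had 212, 190 and 137 CPM (0.16).

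Dentate gyrus markers were higher in 1 and lower in 3 of 13 cases (median −0.21), with Prox1, the identity factor of granule cells, at 98.0, 113 and 107 CPM. Of the neighbouring tissues, neocortex with subiculum and thalamus had lower markers in larger shares than the 17.9% of all measured genes. The striatum did not. Neocortex and subiculum markers were lower in 4 and higher in 1 of 11 cases (median −0.36), and thalamus markers lower in 6 and higher in 1 of 9 (median −0.66, and 3 of the 6 with an interval beyond 1.5-fold). Striatum markers were lower and higher in 1 of 9 each. For Fibcd1, Rgs14 and Grik4 the ApoE shRNA library lay close to the control without FC, and the control with FC was the low library of the 3. Which parts of the hippocampus each library held was not measured otherwise.

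Of the 12 genes named for the highest ratios, 10 were within 1.5-fold of the control without FC or lower than it. Dlk1, an imprinted ligand-like protein, had 19 CPM with ApoE shRNA, 2.53 in the control with FC and 17.8 in the control without FC (2.90). Cpne7, a calcium-dependent membrane-binding protein, had 466, 105 and 522 CPM (2.15), and Crym, which binds thyroid hormone in the cytosol, had 207, 58.0 and 266 CPM (1.84). Dio3, which inactivates thyroid hormone, had 7.51, 1.52 and 8.37 CPM (2.29). Vgll3, Gpr101, Slc9a4, Pde11a and Tbata completed this group, with log2 ratios from 2.62 down to 1.77. Calb2, the calcium-binding calretinin, had 31.9, 9.50 and 44.0 CPM (1.74).

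The remaining pair exceeded both controls. Col6a4, a collagen VI chain, had 8.84 CPM (167 counts) with ApoE shRNA, 0.281 CPM (5 counts) in the control with FC and 0.330 CPM (6 counts) in the control without FC, a log2 ratio of 4.84 (3.72 to 6.62). Capn11, a calpain protease known from testis, had 7.46, 0.618 and 0.716 CPM (3.53). In all 15 genes were at least 1.5-fold higher than both controls. They included Ndn, an imprinted neuronal gene whose product is known as necdin, with 264, 86.3 and 123 CPM (1.61), and Rasd1, a Ras-like protein induced by dexamethasone, with 45.7, 24.1 and 28.5 CPM (0.93).

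**Figure D4:**
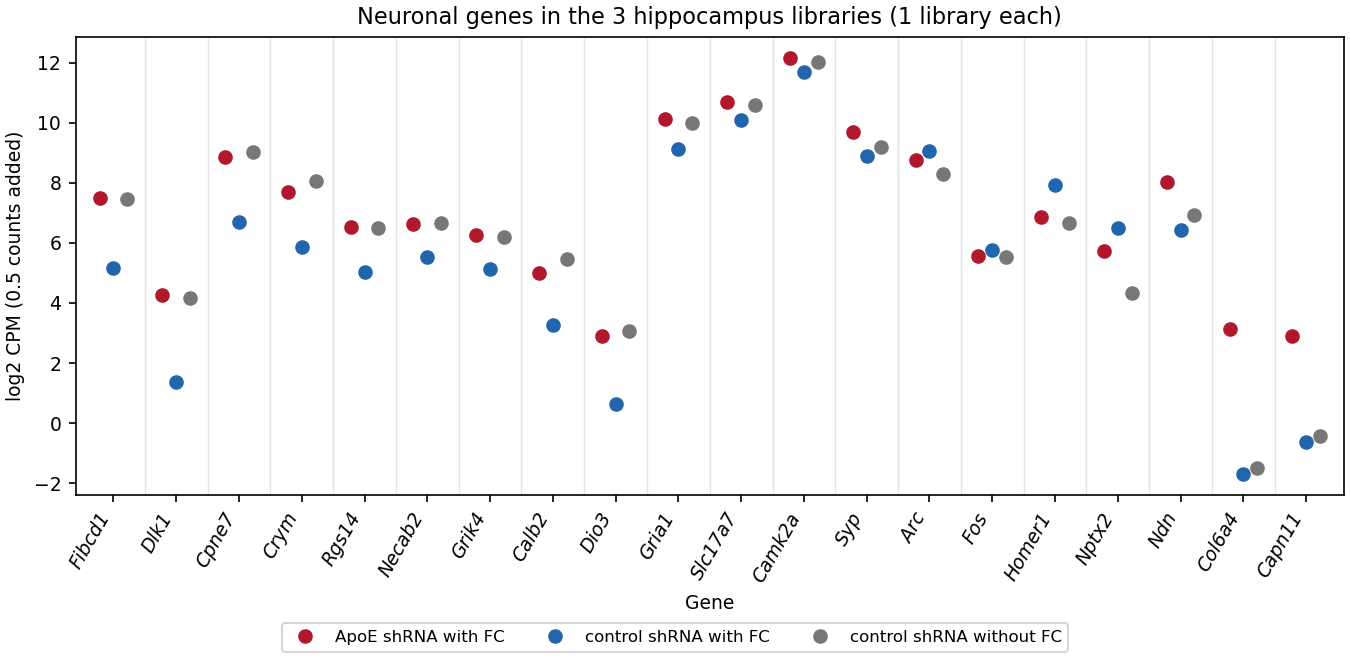
Level of each named neuronal or otherwise higher gene in the ApoE shRNA library with FC, the control shRNA library with FC and the control shRNA library without FC (1 library each), as log2 CPM with 0.5 counts added. From Fibcd1 to Dio3 the ApoE shRNA library lies next to the control without FC, and for Ndn, Col6a4 and Capn11 it lies above both controls.

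Most synaptic genes were within 1.5-fold, where 4.46% of all measured genes were higher and 17.9% lower. Presynaptic release genes had a median of 0.39, with 4 of 26 past 1.5-fold higher and 3 lower, and 20 with an interval above 1. Syp, the vesicle protein synaptophysin, had 823 CPM with ApoE shRNA, 474 in the control with FC and 588 in the control without FC (0.80), and the calcium sensor-like Syt4 had 54.5, 123 and 90.2 CPM (−1.17). Postsynaptic genes had a median of 0.30 with 1 of 26 higher and 1 lower, and the median of all measured genes was −0.02. Camk2a, the kinase of synaptic plasticity, had 4620, 3291 and 4156 CPM (0.49), and Dlg4, the scaffold PSD-95, had 864, 611 and 733 CPM (0.50). Of 22 glutamate receptor genes 4 were higher and 0 lower (median 0.07), led after Grik4 by the AMPA receptor subunit Gria1 at 1110, 554 and 1014 CPM (1.00). Ion channels (1 higher, 4 lower of 35, median 0.26), GABA receptors and synthesis (1 higher, 3 lower of 16, median 0.03), inhibitory neuron markers (3 higher, 1 lower of 16, median 0.17) and neuropeptides (1 higher, 4 lower of 12, median −0.02) were split. Of the lower GABA receptor subunits, Gabrg1 and Gabra4 were within 1.5-fold once ratios were centred by GC content.

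Cholesterol synthesis and sterol sensing genes were mostly within 1.5-fold. Of 20 cholesterol synthesis genes 1 was higher and 1 lower (median 0.14). The isomerase Idi1, of an early step, had 8.89 CPM with ApoE shRNA, 14.3 in the control with FC and 21.2 in the control without FC (−0.69, and −0.42 when centred by GC content). Sterol sensing and uptake genes were lower in 1 of 12 cases, the lysosomal cholesterol binder Npc2 at 53.5, 179 and 56.3 CPM (−1.75), while the sterol-regulated transcription factor Srebf2 had 278, 246 and 246 CPM (0.18).

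LXR is the nuclear receptor that senses oxysterols, and of 12 genes of its pathway, efflux and cholesterol turnover 4 were lower and 1 higher (median −0.24). The exporter Abca1, which loads lipid onto ApoE, had 47.7, 113 and 54.2 CPM (−1.25), and Soat1, which esterifies cholesterol, had 38.2, 77.0 and 48.2 CPM (−1.01). The neuronal exporter Abcg4 had 103, 64.4 and 100 CPM (0.68), and Abcg1 had 78.4, 73.8 and 67.3 CPM (0.09). Of 16 ApoE receptors 3 were lower and 0 higher (median −0.06), led by the microglial receptor Trem2 at 10.5, 56.9 and 14.3 CPM (−2.44). Lrp1, the major neuronal receptor, had 680, 720 and 697 CPM (−0.08), and the synaptic receptor Lrp8 had 95.7, 98.9 and 102 CPM (−0.05). The lower sterol and receptor genes include several that glia and macrophages are known to express, and their share in these lists was below or near the 17.9% of all measured genes, except in the LXR list.

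Histone acetylation genes and their substrate supply were mostly within 1.5-fold, where 17.9% of all measured genes were lower and 4.46% higher. Of 18 acetyl-CoA supply genes 3 were lower and 0 higher (median 0.20), with Acly, the cytosolic citrate lyase, at 182, 158 and 163 CPM (0.20) and Acss2, which makes acetyl-CoA from acetate, at 45.0, 33.4 and 47.4 CPM (0.43). Of 14 histone acetyltransferases 1 was lower (median −0.07), Kat2b at 16.0, 37.7 and 22.1 CPM (−1.23), and the co-activators Crebbp (91.0, 97.1 and 88.6 CPM) and Ep300 (105, 110 and 107 CPM) were within 1.5-fold. Of 18 histone deacetylases 1 was lower (median 0.04), Sirt1 at 11.3, 24.3 and 19 CPM (−1.10), while Hdac2 had 74.6, 78.9 and 84.3 CPM (−0.08). Of 16 fatty acid synthesis genes 3 were lower and 0 higher (median −0.03), led by the elongase Elovl5 at 56.0, 112 and 69.0 CPM. Transcript levels say nothing of enzyme activity or of acetylation itself.

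Genes that neuronal activity induces were mostly within 1.5-fold between the libraries with FC. Of 31 immediate early genes 1 was higher and 2 were lower than in the control with FC (median −0.13), against 8 higher and 0 lower than in the control without FC. Over all measured genes, 4.46% were higher and 17.9% lower than in the control with FC. Against the control without FC, 1.14% of genes were higher and 6.09% lower. Of the 31 intervals against the control with FC, 14 lay below 1 and 11 above it. Arc, a synaptic plasticity gene, had 431 CPM with ApoE shRNA, 531 in the control with FC and 312 in the control without FC (−0.30). The transcription factor Egr1 had 283, 330 and 172 CPM (−0.23), and Fos had 47.4, 54.9 and 46.6 CPM (−0.21). The higher gene was Egr4 at 77.8, 43.5 and 53.0 CPM (0.84), and the lower pair, Klf4 and Klf2, are also known from vessels.

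Late activity genes were lower in 5 of 19 cases and higher in 1 (median −0.03), where 17.9% of all measured genes were lower and 4.46% higher. Inhba, a subunit of activin, had 11.2, 33.4 and 7.27 CPM (−1.58), and Nptx2, a secreted pentraxin that clusters AMPA receptors, had 53.5, 91.3 and 20 CPM (−0.77). Bdnf, the neurotrophin, had 43.4, 55.0 and 32.4 CPM (−0.34). For these 3 genes the ApoE shRNA library lay between the controls. The largest ratio was that of the chromatin remodeller Baz1a, with 20, 160 and 40 counts (−3.06). Homer1, a synaptic scaffold, had 117, 245 and 101 CPM (−1.07), a ratio of −0.36 when centred by GC content.

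Mitochondrially encoded transcripts set the ApoE shRNA library apart from both controls. They took 1.84% of its counts, against 4.12% in the control with FC and 4.24% in the control without FC. All 10 measured protein-coding transcripts of 12 found were lower than in the control with FC (median −1.15), and all 10 were lower than in the control without FC. Centring by GC content, chosen after seeing the data, left 4 of the 10 past 1.5-fold. The ratios were uneven along the molecule. mt-Nd6, the protein-coding gene of the light strand, had 10, 398 and 361 CPM (−5.31), mt-Nd1 of complex I had 627, 3765 and 3586 CPM (−2.59), and mt-Co1 of cytochrome oxidase had 9238, 16306 and 17987 CPM (−0.82). The ribosomal RNAs mt-Rnr1 (598, 2726 and 2338 CPM) and mt-Rnr2 (966, 3840 and 3355 CPM) were lower too. Nuclear genes of the respiratory chain were not: 0 of 75 were higher and 2 lower, with a median of 0.21. Nuclear copies of mitochondrial sequence share reads with these genes, so single values are uncertain, and the counting's strand setting is not given in the sources used here, so mt-Nd6 reads cannot be told apart from those of its antisense strand.

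Base composition moved with the ratios. Genes were split into 5 equal groups by the GC content of their transcripts, known for 99.9% of the measured genes. From the group of lowest GC (31% to 43.9%) to that of highest GC (55.5% to 73.7%), the median log2 ratio was −0.41, −0.06, 0.05, 0.10 and 0.13. In the lowest group 37.2% of genes were at least 1.5-fold lower and in the highest 11%. Against the control without FC, with which the comparison shares the ApoE shRNA library, the medians were −0.28, −0.05, 0.04, 0.09 and 0.10. AT-rich transcripts were thus lower against both controls. The part of GC content in single ratios was not tested beyond centring the ratios within GC bins, after which 1857 genes were lower and 507 higher.

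**Figure D5:**
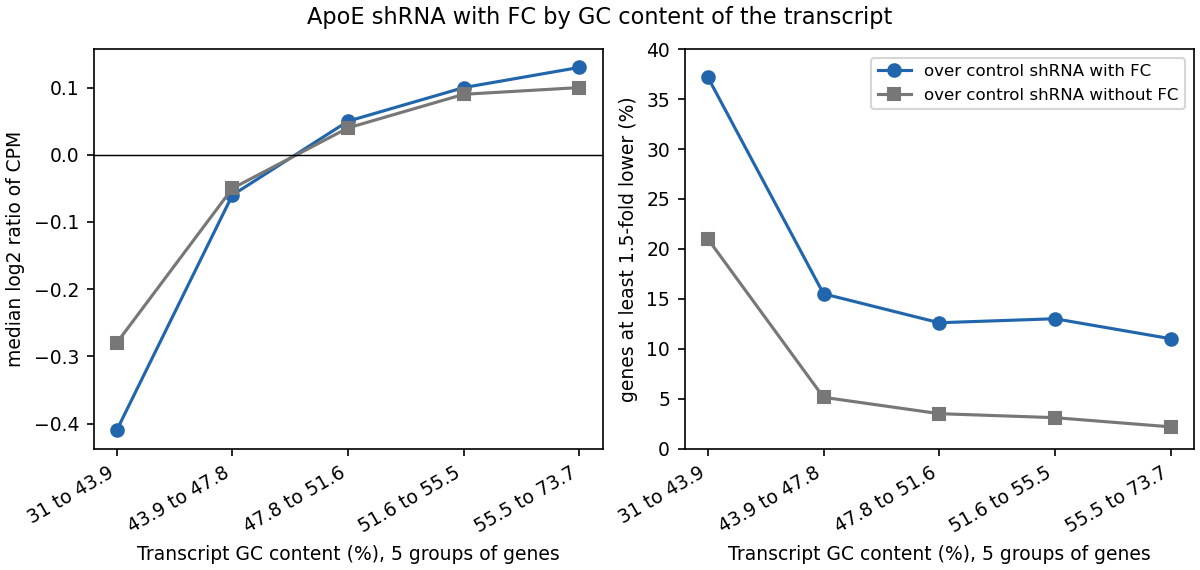
Median log2 ratio of the ApoE shRNA library (left) and percentage of genes at least 1.5-fold lower in it (right) for 5 groups of the measured genes by transcript GC content, over the control shRNA library with FC and over the control shRNA library without FC. The group of lowest GC has medians of −0.41 and −0.28 and shares of 37.2% and 21%.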

How the data were processed

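RNA was extracted with Trizol and libraries were made with the NEBNext Ultra RNA kit, per the labels' protocols. The authors deposited unnormalized read counts for each gene in a table of the 3 hippocampus libraries, whose totals differ, and 0 of its per-sample columns went unused. Per the submitters' processing notes, HISAT2 2.1.0, Bowtie2 2.2.3, HTSeq 0.6.0 and mm10 were used. Neither their roles nor the strand setting is given in the sources used here. Of the gene identifiers, 24597 matched the reference names, and 24 symbols stored as dates were restored.

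Counts were scaled to CPM by library totals in Python 3.11.15 with scipy 1.17.1, and ratios carried a prior of 0.5 counts. A gene was called at 1.5-fold if the library with more of it held 100 counts or more. The floor for a count of 0 was 3 counts per library. TMM factors (edgeR 4.0.16) and median-of-ratios factors (DESeq2 1.42.0) served only as other scalings of the counts. The comparison, the 66 gene lists and the rules were chosen with earlier results of these data known, and further genes were named for their role after their values were seen. The rule named Apoe, the 12 highest and 12 lowest ratios whose interval lay beyond 1.5-fold (no predicted genes, pseudogenes or immunoglobulin segments), and up to 4 called members of each list, or 2 where none was called. Some of the genes so named are not reported here.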

Additional observations from a re-analysis of the deposited data

How the results depend on the processing

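The 556 higher and 2230 lower genes depended on the limits used. Where 20 counts in the library with more of a gene sufficed, they were 1007 and 3550, where 500 were asked for 350 and 982, and at 2-fold 101 and 1182. With intervals wholly beyond 1.5-fold they were 268 (2.15%) and 1574 (12.6%). TMM scaling gave 768 and 1974, which moved the share of calls that were higher to 28%, against 20% with totals, and median-of-ratios scaling gave 786 and 1955 (28.7%). Totals without mitochondrial and the 20 most abundant genes gave 479 and 2346, and a prior of 5 counts 536 and 2195. Alternatives chosen after seeing the data were centring within 20 GC bins (507 and 1857) and the control without FC as comparator (137 and 730). Of 214 genes named by the rule and past 1.5-fold, 207 remained so under TMM and under median-of-ratios scaling, and 184 under GC centring, where Kcnh7 (0.01) changed sign and the others under the fold kept theirs; the cause was not tested. List counts stayed within 1.5 times in 116 of 132 cases under TMM and in 106 under GC centring. They did so in 104 cases with intervals wholly beyond 1.5-fold and in 85 where 500 counts were asked for. No paired analysis was possible because each group held 1 library, and for the same reason no replicate could be left out. At 100 counts the intervals are wide, and genes at 0 counts have bounds only.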

Other observations

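Further lists held genes that differed in both directions, where 4.46% of all measured genes were higher and 17.9% lower. Of 20 imprinted genes 4 were higher and 3 lower (median 0.17), with Dlk1 and Ndn highest and the growth factor Igf2 at 42.2 CPM with ApoE shRNA, 93.2 in the control with FC and 54.1 in the control without FC. Of 27 measured collagen genes 2 were higher and 8 lower (median −0.25), from Col6a4 to Col4a6, a basement membrane chain, at 1.01, 8.10 and 2.37 CPM. Of 24 matrix proteases and inhibitors 3 were higher and 7 lower (median −0.09). The higher ones included Adamts9 (8.15, 3.26 and 13.7 CPM), and the lower ones Adamtsl4 (5.93, 22 and 7.76 CPM). Thyroid hormone and retinoid genes were lower in 5 and higher in 1 of 11 cases (median −0.57). Dio2, which activates thyroid hormone in astrocytes, had 79.0, 167 and 58.7 CPM, opposite in direction to Dio3.

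Of 18 glucocorticoid-induced genes 6 were lower and 0 higher than in the control with FC (median −0.32), while 8 were higher and 1 lower than in the control without FC (median 0.55). The shares over all measured genes were 17.9% lower and 4.46% higher against the control with FC. Against the control without FC they were 6.09% lower and 1.14% higher. The kinase Sgk1 had 144, 204 and 57.6 CPM, and the chaperone Fkbp5 93.2, 87.3 and 70.5 CPM. Of 16 clock genes 2 were lower than in the control with FC and 3 higher than in the control without FC, with Per1 at 182, 169 and 107 CPM. The neurogenic niche list had 1 higher and 1 lower of 8, the immature neuron gene Dcx at 17.9, 32.2 and 35 CPM (−0.85, and −0.39 when centred by GC content). Cell cycle genes were lower in 3 of 6 measured cases of 22 found and replication-dependent histones in 4 of 7 of 42 found, with Hist1h1c at 10, 41.5 and 14.0 CPM. Of the lower ones, Mcm3, Mki67, Hist1h4k and Hist1h2be passed the count limit through the control with FC alone. Glycolysis and hypoxia genes (1 higher, 2 lower of 23, median 0.28) and cytosolic ribosomal protein genes (1 higher, 4 lower of 80, median −0.22) were close to level. The only measured ependymal marker, Foxj1, had 6.88, 11.6 and 7.21 CPM. The Y-linked gene Ddx3y had 32.0, 60.3 and 42.8 CPM and Xist 3, 2 and 6 counts.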
